A study of Rattus norvegicus with 8 samples.

Results

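The Slc25 genes encode the mitochondrial carrier family, here taken as every row of the deposited count table whose symbol begins with Slc25a and a number. The rule found 39 of the 16764 symbols in the table. Of these, 32 passed the expression filter and were tested among 12210 genes. The other 7 (Slc25a21, Slc25a23, Slc25a34, Slc25a41, Slc25a45, Slc25a47 and Slc25a53) are described by their counts. The family name covers transporters whose substrates differ widely, so the genes are grouped below by substrate. The lists by substrate named 53 genes, and those without a row in the table are not described. The table has no row for Slc25a12, Slc25a13 or Slc25a31.

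Mitochondrial carriers are small proteins of the inner mitochondrial membrane that exchange or co-transport solutes between the cytosol and the matrix. They move ADP and ATP, phosphate, carboxylic acids, amino acids, acylcarnitines, nucleotides, cofactors and iron. A few members work elsewhere, such as Slc25a17 in the peroxisome and Slc25a46 in the outer mitochondrial membrane. In the testis, spermatogonia rely largely on glycolysis, and spermatocytes, which lie behind the blood-testis barrier, use lactate and pyruvate through mitochondrial respiration.

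RNA was sequenced from 3 groups of Brown Norway rat germ cells with 2 libraries each, and all tests below rest on these 6 libraries. Undifferentiated spermatogonia (USg) were a spermatogonial line kept in SG medium, described as taken at day 0, before plating on laminin, although the sample titles of USg and DSg both carry the tag T120. Differentiating spermatogonia (DSg) were the same line at day 7 on laminin, after 120 h in SD medium with neuregulin-1 and all-trans-retinoic acid. The spermatocyte-enriched group (Spc) was a primary testis culture depleted of cells that attach to plastic, collagen-I and laminin, and kept 2.5 days in medium with 10% serum. Medium and laminin cannot be told apart between DSg and USg, and the labels leave unsettled how far the times differ. Stage, source and culture cannot be told apart between Spc and either line group. The labels name replicate cultures for the line, but do not say whether the 2 Spc libraries came from separate animals. The p-values therefore set each difference against the spread between these libraries only. For each gene that spread is estimated over all 3 groups, so DSg against USg also draws on the Spc libraries. It is also drawn toward a trend over all genes, so it is not the gene's own spread alone.

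Total counts ranged from 2657291 to 5697165 per library, and Slc25 genes took 0.122% to 0.151% of them. DSg 1 and USg 1 held more ribosomal RNA than the others, with 12.4% of the counts of DSg 1, 7.81% of those of USg 1 and at most 0.734% elsewhere. In DSg 2, 96.7% of 1045 olfactory receptor genes had a count, against 23.3% to 64.1% in the other libraries. The SD of the log2 difference between the libraries of a group, over the 32 tested Slc25 genes, was 0.95 in USg, 0.84 in DSg and 0.30 in Spc. Of the 7 undifferentiated markers, 6 were lower in Spc than in USg and 1 (Id4) was higher. Their sum was 1594 and 1816 CPM (counts scaled to a common library size) in USg, 292 and 296 in DSg and 202 and 182 in Spc, where Id4 alone had 140 and 118. The 4 differentiating markers summed to 141 and 222 CPM in USg, 682 and 683 in DSg and 135 and 138 in Spc, and Kit alone had 597 and 562 in DSg. Kit and Rec8 were higher in DSg than in USg, while Sohlh1 and Dmrtb1 did not pass, and Rec8 was also higher in Spc than in USg. Spermatocyte markers summed to 919 and 619 CPM in USg, 1008 and 590 in DSg and 7258 and 7805 in Spc. Markers of peritubular and stromal cells were also highest in Spc, at 2695 and 2571 CPM, against 306 and 237 in DSg and 512 and 244 in USg. Of these 7, 6 were called higher in Spc than in either line group. Of 7 tested Sertoli markers 6 were higher in Spc than in DSg and 5 than in USg, although Amh and Rhox5 did not pass the filter. The Sertoli list summed to 1440 and 1199 CPM in Spc, 268 and 214 in DSg and 411 and 460 in USg. The Leydig cell list summed to 163 and 174 CPM in Spc, 9.70 and 21.3 in DSg and 5.40 and 5.52 in USg. It rested on Star, since Insl3, Cyp17a1 and Lhcgr had at most 6 counts in a Spc library. Cyp11a1 went the other way, at 0.788 and 1.09 CPM in Spc and 6.06 and 5.92 in DSg (-2.64 ± 0.78, edgeR adjusted p = 0.0356). Macrophage markers summed to 57.4 and 72.3 CPM in Spc, 7.68 and 32.6 in DSg and 16.6 and 8.55 in USg. Endothelial markers summed to 32.9 and 44.4 CPM in Spc, 62.2 and 80.5 in DSg and 210 and 138 in USg. Among the endothelial markers, Cdh5 was higher in Spc than in USg, while Pecam1, Kdr and Vwf were lower. The part of these other cells in the Spc levels given below was not tested. In bulk RNA, a change in the number of cells of one type and a change in RNA per cell cannot be told apart.

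Across the family, 10 of the 32 tested genes passed the threshold (edgeR adjusted p under 0.05 over all genes) in at least 1 comparison. In Spc against USg, 5 genes were higher (Slc25a4, Slc25a17, Slc25a20, Slc25a24 and Slc25a44) and 2 lower (Slc25a1 and Slc25a15). These 7 of 32 genes make 21.9%, against 34.5% of all genes tested. By direction, 15.6% were higher, against 17.9% of all genes, and 6.25% were lower, against 16.6%. In Spc against DSg, 6 genes were higher (Slc25a4, Slc25a17, Slc25a20, Slc25a24, Slc25a28 and Slc25a39) and 3 lower (Slc25a1, Slc25a15 and Slc25a30). That share, 28.1%, stands beside 26.5% of all genes, with 14.8% of all genes higher (1806 genes) and 11.7% lower (1433). Upper quartile scaling gave 1486 higher and 1925 lower genes in that comparison, and total-count scaling 1407 and 1681; the Slc25 genes were then 5 higher and 4 lower, and 5 and 3. In DSg against USg, 1 gene was lower (Slc25a28) and 0 were higher, a share of 3.12% beside 2.48% of all genes, 1.92% lower and 0.565% higher. At an unadjusted p under 0.05, edgeR counted 4 higher and 2 lower in that comparison, 12.5% and 6.25% of the family beside 8.26% and 10.9% of all genes. DESeq2 called 2 higher and 1 lower after adjustment, 6.67% and 3.33% of the 30 with an adjusted p, beside 2.12% and 4.81% of all such genes. Libraries that do not overlap were common. In DSg against USg both DSg libraries lay above both USg libraries for 14 of the 32 genes (43.8%, beside 21.2% of all genes) and below for 4 (12.5%, beside 21.1%). The Spc libraries lay above both USg libraries for 18 genes and below for 5, beside 37.1% and 35.3% of all genes. Against DSg they lay above for 13 and below for 9, beside 36.6% and 34.6%. The median log2 fold change of the 32 genes was 0.33 in DSg against USg, 0.52 in Spc against USg and 0.12 in Spc against DSg, against 0.01, -0.04 and -0.03 over all genes. The 2 comparisons of Spc share the Spc libraries, so the 6 genes called in both, each in the same direction, do not count as repeated evidence.

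The upstream windows of 4 genes called in both Spc comparisons are shown, 3 that were higher in Spc (Slc25a4, Slc25a17 and Slc25a20) and 1 that was lower (Slc25a1). Each is the 250 bases before the RefSeq start site, 5′ to 3′ on the gene's strand, with capitals at matches on either strand to the GC box GGGCGG and the CCAAT box CCAAT.
Slc25a4 (GRCr8 chr16:52805271-52805520, plus strand): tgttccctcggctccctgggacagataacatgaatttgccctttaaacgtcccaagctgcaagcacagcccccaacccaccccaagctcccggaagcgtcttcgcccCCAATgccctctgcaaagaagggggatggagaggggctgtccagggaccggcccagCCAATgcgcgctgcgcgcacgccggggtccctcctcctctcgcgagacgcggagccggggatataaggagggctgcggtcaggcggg
Slc25a17 (GRCr8 chr7:114767164-114767413, minus strand): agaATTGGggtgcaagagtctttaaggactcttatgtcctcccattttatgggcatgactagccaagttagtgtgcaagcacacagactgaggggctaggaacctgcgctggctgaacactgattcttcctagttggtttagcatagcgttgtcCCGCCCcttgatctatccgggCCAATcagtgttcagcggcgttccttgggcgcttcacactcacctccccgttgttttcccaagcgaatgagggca
Slc25a20 (GRCr8 chr8:118243323-118243572, plus strand): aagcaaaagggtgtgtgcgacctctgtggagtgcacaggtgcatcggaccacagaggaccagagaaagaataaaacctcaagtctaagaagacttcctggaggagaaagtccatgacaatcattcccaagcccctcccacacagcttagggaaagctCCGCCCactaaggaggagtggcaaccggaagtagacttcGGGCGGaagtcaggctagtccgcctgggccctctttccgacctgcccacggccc
Slc25a1 (GRCr8 chr11:96559804-96560053, plus strand): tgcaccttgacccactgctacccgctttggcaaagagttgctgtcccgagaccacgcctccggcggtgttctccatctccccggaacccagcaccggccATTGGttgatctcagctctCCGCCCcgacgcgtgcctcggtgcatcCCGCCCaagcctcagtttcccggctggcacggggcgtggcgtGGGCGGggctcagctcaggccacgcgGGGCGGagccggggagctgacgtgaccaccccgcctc
The Slc25a1 window held 4 GC boxes and 1 CCAAT box, and the Slc25a4 window had 2 CCAAT boxes and no GC box. Slc25a17 held 1 GC box and 2 CCAAT boxes, and Slc25a20 held 2 GC boxes. No 2 marked motifs overlapped. Of 39 Slc25 genes, 33 matched the RefSeq promoter table of GRCr8. A GC box was in 60.6% of them and in 30.5% of all 33469 windows of that table, and a CCAAT box in 57.6% of them and 34.0% of all windows. The CRE core TGACG was in 24.2% of them and 18.2% of all windows, and the TATA box TATAAA in 3.03% and 12.9%. The A-MYB core AACNGTT was in 0 of the 33 windows and 3.94% of all. The E2F6 motif TCCCGC was in 24.2% of the 33 and 16% of all. The remaining motifs searched were in 0 of the 33 windows. They were NRF1 (3.75% of all), E2F (1.04%), the ERR element (0.388%) and DR1 (0.0508%). All motifs were searched on both strands. The Slc25 shares count 1 window per gene, while the background counts every window of the table, whatever the kind of gene. The sets are thus unlike, and no difference between them is read as a trait of the family. These matches describe letters in the windows and say nothing of binding.

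**Figure D1:**
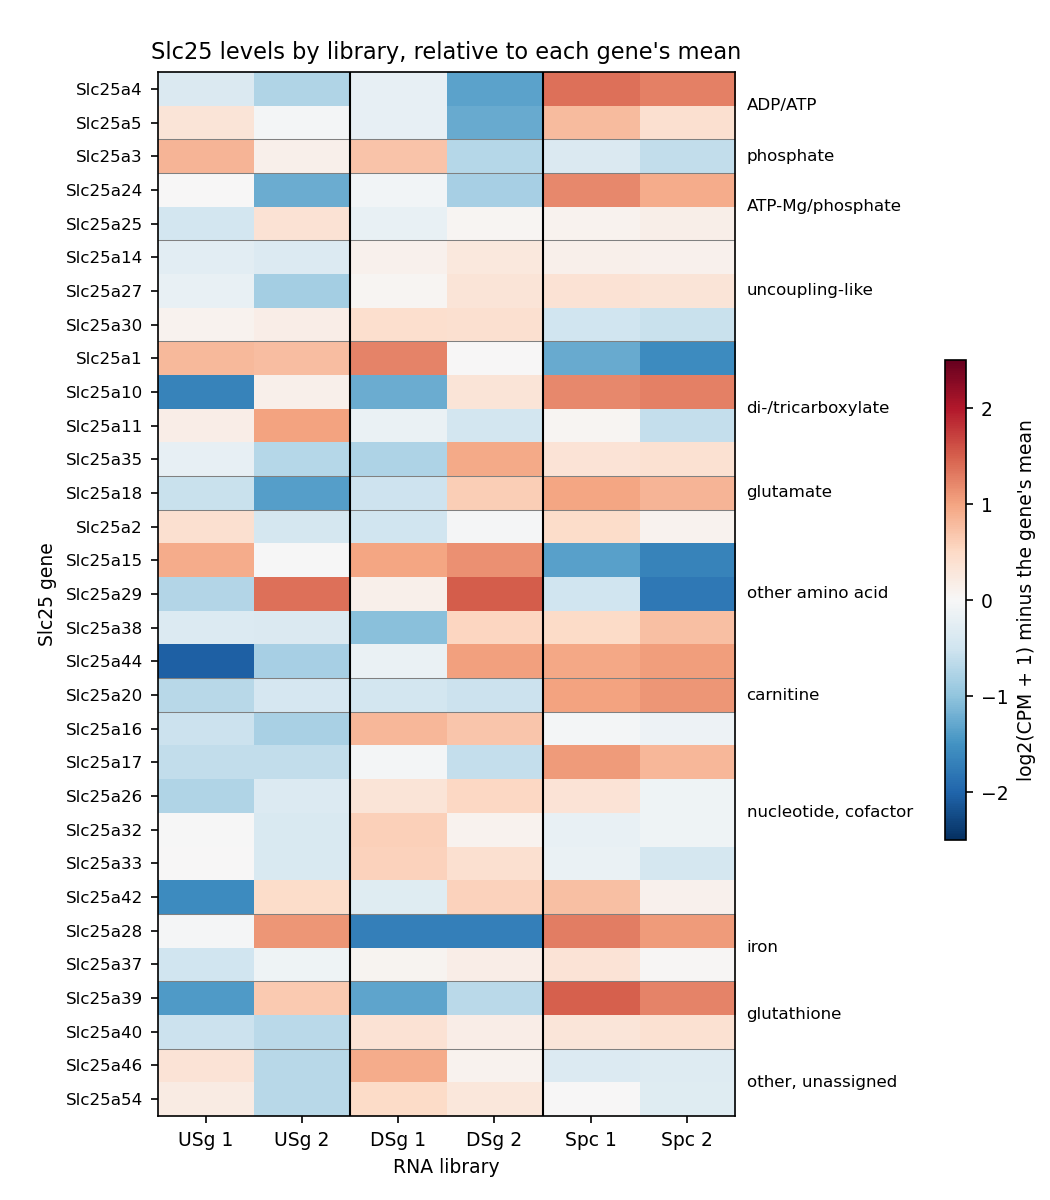
Heat map of 31 of the 32 tested Slc25 genes in the 6 RNA libraries (columns), grouped by substrate (rows). Colour gives log2(CPM + 1) minus the gene's mean over the libraries, red above and blue below. The Spc columns are alike, whereas the libraries of USg and of DSg often differ from each other, as for Slc25a39 at 34.7 CPM in USg 1 and 149 CPM in USg 2.

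**Figure D2:**
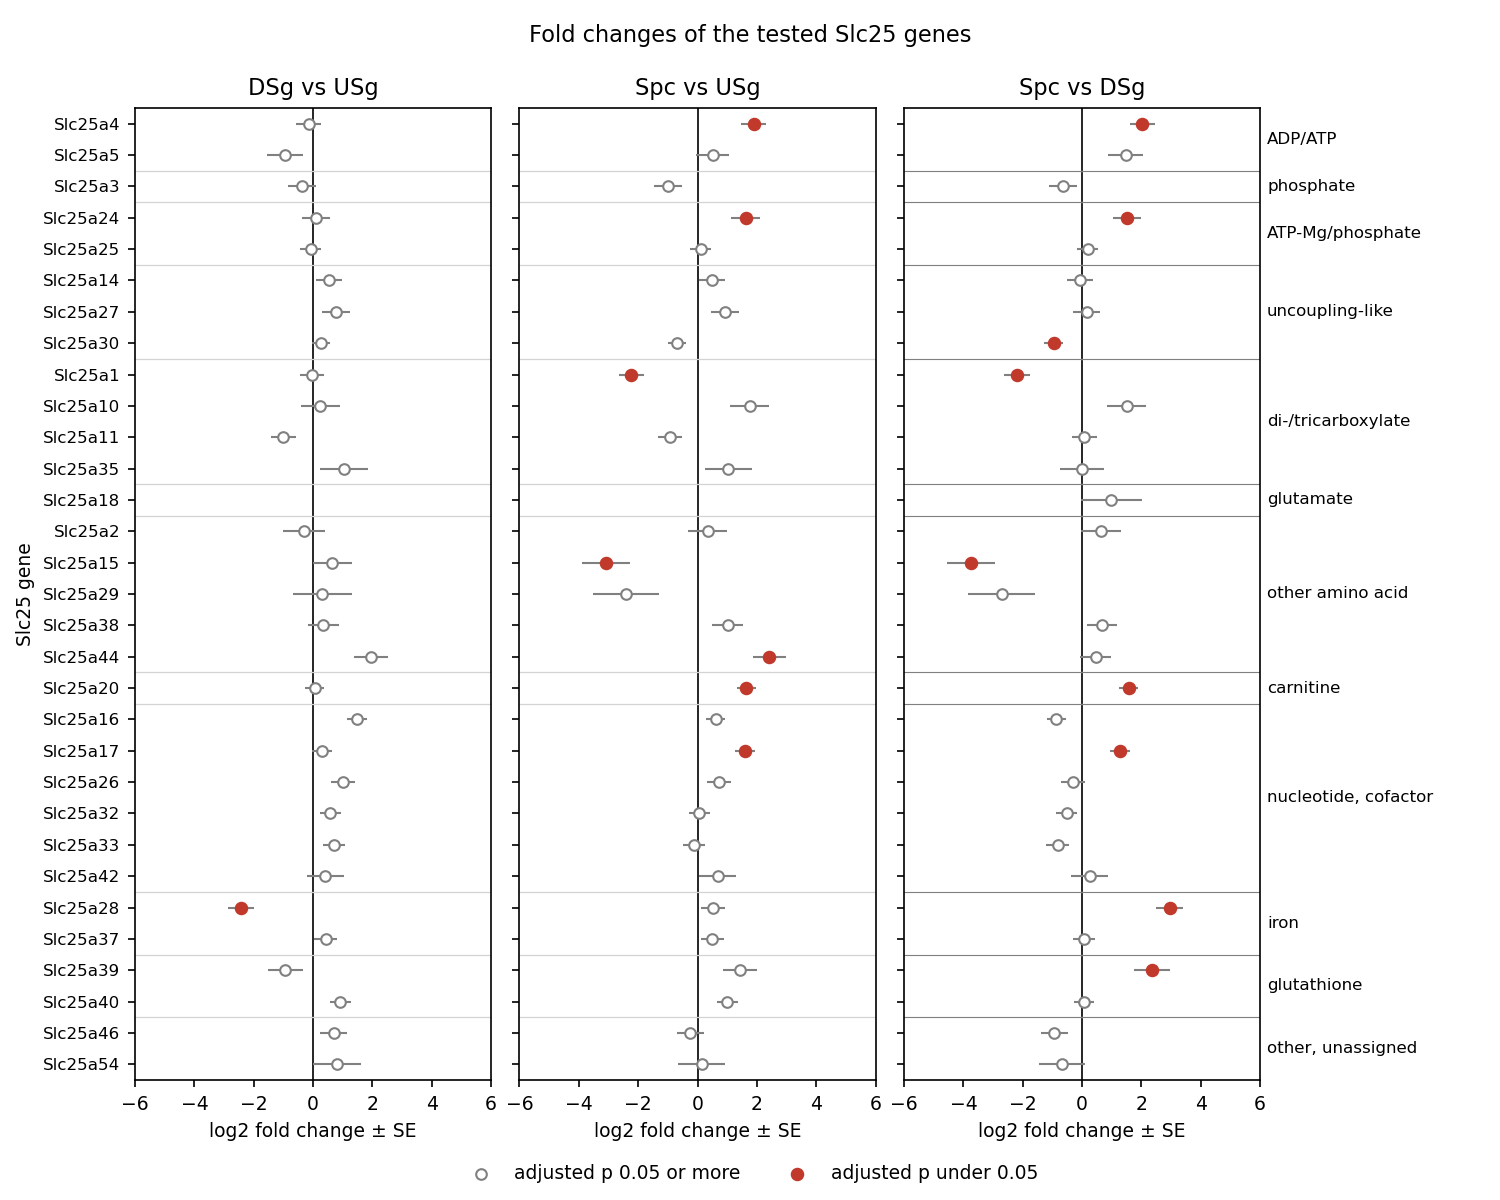
Log2 fold changes ± SE of 31 of the 32 tested Slc25 genes in the 3 comparisons, the first-named group over the second, by edgeR. Filled points passed an adjusted p of 0.05. The comparisons with USg omit Slc25a18, which had 2 counts in all in USg. Filled points number 1 in DSg against USg, 7 in Spc against USg and 9 in Spc against DSg.

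The adenine nucleotide carriers exchange cytosolic ADP for matrix ATP. Only 2 of them, Slc25a4 and Slc25a5, were in the table, and Slc25a31, a further ADP/ATP carrier, had no row. Slc25a4 (ANT1), the isoform of heart and muscle, was higher in Spc than in either line group. It stood at 40.9 and 31.0 CPM in USg 1 and 2, 45.3 and 20.2 CPM in DSg 1 and 2 and 138 and 127 CPM in Spc 1 and 2. Both Spc libraries lay above all 4 line libraries, which overlapped one another. The log2 fold change was 1.89 ± 0.42 (SE) in Spc against USg (edgeR adjusted p = 0.00871) and 2.03 ± 0.42 in Spc against DSg (edgeR adjusted p = 0.00891). In DSg against USg it was -0.14 ± 0.42 (edgeR adjusted p = 0.886), which turned to 0.34 without DSg 2. It was -0.76 without USg 1 and DSg 1 together. That setting leaves no replicate in either line group, and its spread comes from Spc alone, where libraries were most alike. A pass given below for it carries this limit and is not evidence about the single gene. Both Spc calls held under all 16 alternatives, with 2.89 against DSg when DSg 1 was left out. Slc25a5 (ANT2), an X-linked isoform of proliferating cells, had 9.26 and 6.94 CPM in USg, 6.06 and 2.42 in DSg and 13.2 and 9.80 in Spc. It passed no comparison, with log2 fold changes of -0.96 ± 0.61 in DSg against USg, 0.52 ± 0.56 in Spc against USg and 1.48 ± 0.60 in Spc against DSg (edgeR adjusted p = 0.421, 0.499 and 0.098). The last passed with no filter (0.0457), without USg 2 (0.0491), without DSg 1 (2.41, edgeR adjusted p = 0.0463) and without USg 1 and DSg 1 together (0.000549), and the first passed in that last setting (-1.65, edgeR adjusted p = 0.0235). RefSeq lists 9 pseudogenes of Slc25a5 in the rat genome, so reads may have been lost or shared among them and its level is uncertain. Stromal markers moved with Spc as Slc25a4 did, for example the stromal proteoglycan gene Dcn at 538 and 558 CPM in Spc and 3.23 and 5.12 CPM in DSg, and their part was not tested.

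The phosphate carrier gene Slc25a3 supplies phosphate for ATP synthesis. Its level was 512 and 312 CPM in USg, 466 and 172 in DSg and 223 and 186 in Spc. The DSg libraries spanned the Spc values, and no comparison passed the threshold. Slc25a24 and Slc25a25 encode calcium-regulated ATP-Mg/phosphate carriers, which set the size of the adenine nucleotide pool in the matrix. Slc25a24 had 34.3 and 13.9 CPM in USg, 32.3 and 18.9 in DSg and 80.2 and 66.0 in Spc. The Spc libraries lay above the others (1.62 ± 0.48 against USg, edgeR adjusted p = 0.0294, and 1.52 ± 0.48 against DSg, edgeR adjusted p = 0.0455). The value against USg was 2.35 without USg 1, and that against DSg 2.13 without DSg 1. The call against USg ended without USg 2 (1.11, edgeR adjusted p = 0.0911) or Spc 1 (0.0967). Its call against DSg ended under upper quartile scaling (0.0629), under total-count scaling (0.0539) and without either DSg or either Spc library (edgeR adjusted p = 0.0547 to 0.219). The RefSeq gene ranges of Slc25a24 and Slc25a54 overlap, and the strand setting of the counts is not given in the sources used here. Reads of one may therefore have been counted for the other. In all, 15 of the 39 Slc25 genes overlap another protein-coding gene, so the same limit may apply to them. Among these are Slc25a16, Slc25a20, Slc25a26, Slc25a40 and Slc25a46. Slc25a25 passed no comparison, at 37.4 and 66.2 CPM in USg, 45.3 and 53.3 in DSg and 55.0 and 57.5 in Spc.

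Slc25a1, the citrate carrier, exports citrate to the cytosol, where it feeds fatty acid and sterol synthesis. It was lower in Spc, at 169 and 165 CPM in USg, 229 and 96.9 in DSg and 39.6 and 31.6 in Spc. The log2 fold change was -2.23 ± 0.43 in Spc against USg (edgeR adjusted p = 0.0046), a 4.69-fold difference, and that call held under all 16 alternatives. Against DSg it was -2.19 ± 0.43 (edgeR adjusted p = 0.0069), and the call ended without DSg 1 (-1.27, edgeR adjusted p = 0.0525), though not without USg 1 and DSg 1 together (-1.32). Slc25a10, the dicarboxylate carrier, which exchanges malate and succinate for phosphate, had 5.40 and 21.4 CPM in USg, 7.68 and 24.8 in DSg and 45.9 and 48.3 in Spc. Both Spc libraries were above the other 4, but the spread within the line was wide and the test missed the threshold (1.76 ± 0.66 in Spc against USg, edgeR adjusted p = 0.0663). It passed with no filter, DESeq2, limma-voom, a replicate block (edgeR adjusted p = 0.00417), without USg 2, Spc 1 or Spc 2 and without USg 1 and DSg 1 together, at log2 fold changes of 1.11 to 3.13. The 2-oxoglutarate carrier gene Slc25a11, a part of the malate-aspartate shuttle, had 29.3 and 53.4 CPM in USg, 23.0 and 18.6 in DSg and 26.8 and 17.0 in Spc, and did not pass. Slc25a35, which has no settled substrate, stayed between 2.02 and 8.89 CPM.

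Among the amino acid carriers, 1 was lower in Spc than in USg (Slc25a15) and 1 higher (Slc25a44). Slc25a15 (ORC1) exchanges ornithine for citrulline and links the matrix to polyamine and urea cycle metabolism. Its level was 7.72 and 3.56 CPM in USg, 8.08 and 9.16 in DSg and 0.788 and 0.435 in Spc, where it had only 4 and 2 counts. Every Spc library lay below every line library (-3.09 ± 0.80 against USg, edgeR adjusted p = 0.0172, and -3.74 ± 0.80 against DSg, edgeR adjusted p = 0.0097). The call against USg ended with limma-voom (0.0518) and without USg 1 (0.0618), Spc 1 (0.0672) or Spc 2 (edgeR adjusted p = 0.146), and the value was -2.50 without USg 1 and DSg 1 together. The call against DSg ended without Spc 2 (edgeR adjusted p = 0.0802).

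Slc25a44, which carries branched-chain amino acids into mitochondria, stood at 3.09 and 8.55 CPM in USg, 14.1 and 33.4 in DSg and 31.9 and 34.0 in Spc. It was higher in Spc than in USg (2.42 ± 0.57, edgeR adjusted p = 0.0112), and that call held under all 16 alternatives, at 1.90 to 3.42, the highest without USg 2. Both DSg libraries were above both USg libraries, but the difference missed the threshold (1.96 ± 0.57, edgeR adjusted p = 0.114) and ranged from 1.203 without DSg 2 to 2.87 without USg 2. It passed with no filter (0.018), DESeq2 (0.024), a replicate block (edgeR adjusted p = 0.0275), without USg 2 (0.0333), Spc 1 (0.0494) or Spc 2 (0.0481), and without USg 1 and DSg 1 together (0.000304). Spc and DSg overlapped (0.46 ± 0.52, edgeR adjusted p = 0.545). Slc25a38, the glycine carrier needed for haem synthesis, had 13.1 and 13.0 CPM in USg, 7.68 and 25.0 in DSg and 23.8 and 29.2 in Spc. Slc25a29, a carrier of basic amino acids, had 1.54 and 9.97 CPM in USg, 3.64 and 11.04 in DSg and 1.97 and 0.218 in Spc. Slc25a2, the second ornithine carrier, stayed between 2.83 and 6.50 CPM. None of these 3 passed a comparison. The glutamate carrier gene Slc25a18 had 2 and 0 counts in USg, 2 and 11 in DSg and 21 and 17 in Spc, and no fold is given against so few counts in USg.

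**Figure D3:**
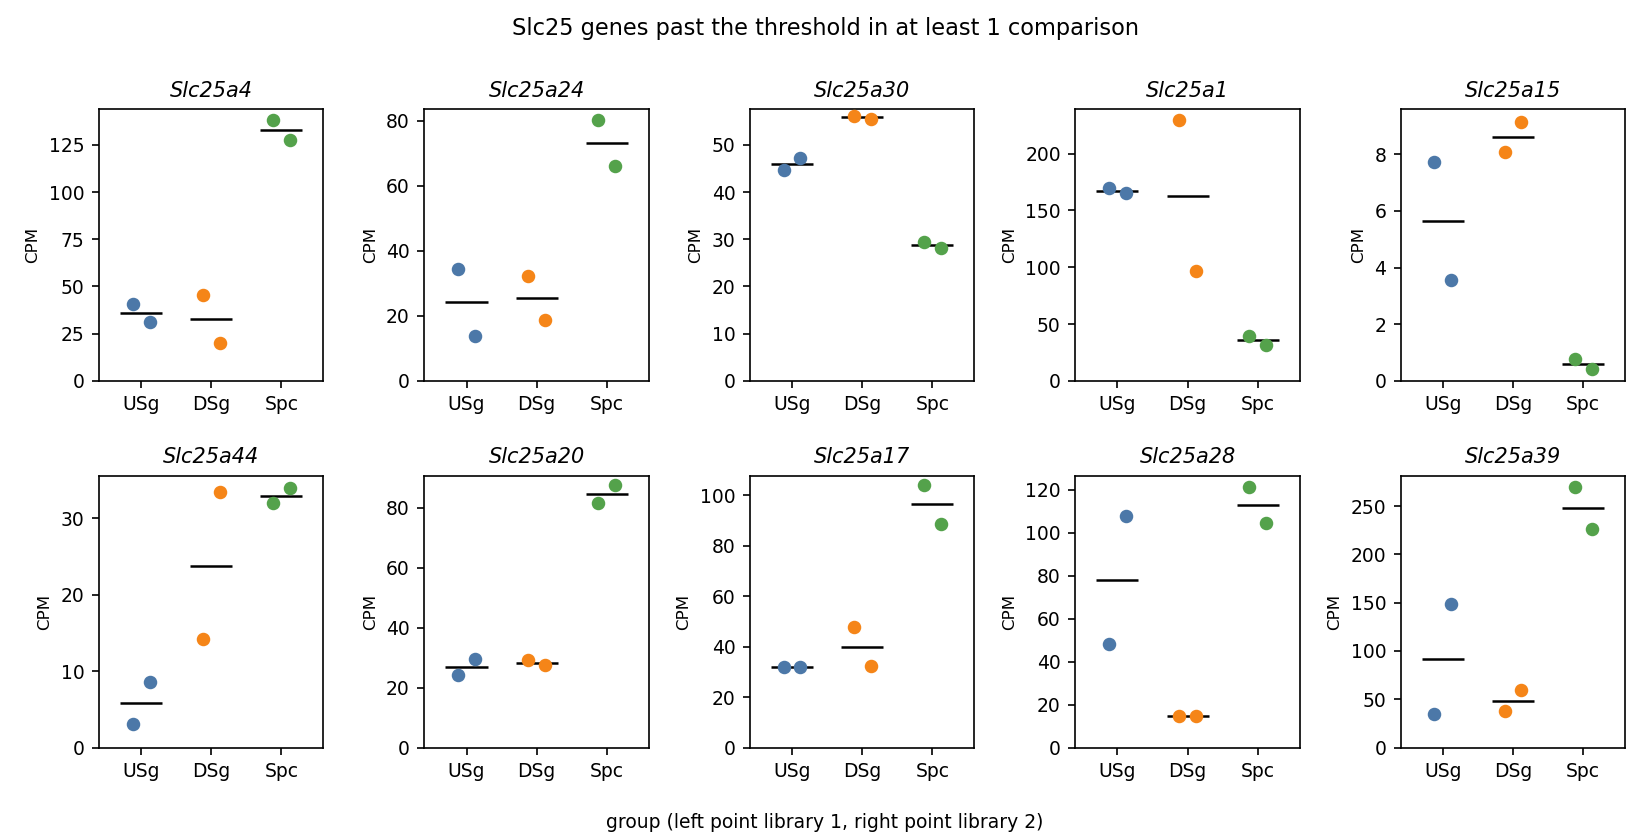
CPM of the 10 Slc25 genes that passed the threshold in at least 1 comparison, by group; each point is 1 library, the bar is the mean of 2, and each panel has its own axis from 0. Slc25a1 and Slc25a15 are lowest in Spc, Slc25a28 is lowest in DSg (14.5 CPM in each library), and Slc25a4 and Slc25a20 are highest in Spc.

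Slc25a20 (CACT) exchanges acylcarnitines for carnitine and so admits long-chain fatty acids to beta-oxidation. Its level was 24.3 and 29.7 CPM in USg, 29.1 and 27.5 in DSg and 81.8 and 87.5 in Spc. The line libraries overlapped, and both Spc libraries lay well above them. The log2 fold change was 1.64 ± 0.32 in Spc against USg (edgeR adjusted p = 0.00478) and 1.58 ± 0.32 in Spc against DSg (edgeR adjusted p = 0.0079). The call against USg ended without Spc 2 (edgeR adjusted p = 0.0582), and the call against DSg without Spc 1 (0.0565) or Spc 2 (edgeR adjusted p = 0.075).

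Carriers of nucleotides and cofactors held 1 gene that passed, of 7 tested. Slc25a17, a peroxisomal carrier of coenzyme A, FAD and NAD, had 32.0 and 32.1 CPM in USg, 47.7 and 32.3 in DSg and 104 and 88.8 in Spc. It was higher in Spc than in USg (1.59 ± 0.34, edgeR adjusted p = 0.00707) and in DSg (1.27 ± 0.34, edgeR adjusted p = 0.0231). The first call ended without Spc 1 (edgeR adjusted p = 0.0979), the second without DSg 2, Spc 1 or Spc 2 (edgeR adjusted p = 0.113 to 0.242). Slc25a16, a mitochondrial carrier linked to coenzyme A uptake, did not pass. It stood at 19.7 and 16.0 CPM in USg, 51.7 and 47.1 in DSg and 27.8 and 26.3 in Spc, with no overlap between any of the groups. The difference of DSg from USg missed the threshold (1.47 ± 0.34, edgeR adjusted p = 0.0584). It passed with DESeq2 (0.0189), a replicate block (edgeR adjusted p = 0.0388), without USg 1 (0.0359) and without USg 1 and DSg 1 together (0.00122).

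The remaining cofactor carriers passed no comparison. Slc25a26, which imports S-adenosylmethionine, the methyl donor of mitochondria, had 8.10 and 11.04 CPM in USg, 18.2 and 21.0 in DSg and 18.5 and 13.3 in Spc. Slc25a32, linked to folate and FAD import, had 32.0 and 24.6 CPM in USg, 49.7 and 34.7 in DSg and 28.4 and 30.3 in Spc. Slc25a33, a pyrimidine nucleotide carrier, had 17.8 and 13.2 CPM in USg, 26.7 and 23.4 in DSg and 15.6 and 12.6 in Spc. For each of these 3 the DSg libraries lay above both USg libraries, as they did for 21.2% of all genes. Slc25a42, a carrier of coenzyme A, ranged from 7.33 to 40.8 CPM with overlap between all groups.

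The 2 mitoferrin genes bring iron into mitochondria for haem and iron-sulphur clusters. Slc25a28 (mitoferrin 2), the widely expressed form, was the only Slc25 gene that passed in DSg against USg. It fell to 14.5 CPM in each DSg library, against 48.2 and 108 CPM in USg 1 and 2. The log2 fold change was -2.43 ± 0.44, a 5.39-fold lower level (edgeR adjusted p = 0.0298). Its size moved with the USg library left out, at -3.02 without USg 1 (8.14-fold), -1.79 without USg 2 (3.45-fold) and -3.04 without USg 1 and DSg 1 together. The call ended in the fit of the 4 libraries compared (edgeR adjusted p = 0.0792). The value was -2.63 without DSg 1 and -2.43 without DSg 2, and the call ended there too. DSg then has no replicate, and no gene of any kind passed in this comparison. The end of the call in those settings is therefore not particular to Slc25a28. In Spc it had 121 and 104 CPM, and it was higher there than in DSg by 2.95 ± 0.44 (edgeR adjusted p = 0.00212), a call that held under all 16 alternatives. Both of these differences use the same DSg libraries. Spc overlapped USg (0.52 ± 0.40, edgeR adjusted p = 0.337), although Spc passed as higher without USg 2 (1.24, edgeR adjusted p = 0.0327). Slc25a37 (mitoferrin 1), the form of red cell precursors, had 11.6 and 15.5 CPM in USg, 17.8 and 19.1 in DSg and 21.5 and 17.2 in Spc. Its log2 fold changes were 0.43 ± 0.39 in DSg against USg, 0.50 ± 0.38 in Spc against USg and 0.07 ± 0.38 in Spc against DSg (edgeR adjusted p = 0.575, 0.331 and 0.91). Of 3 tested red cell genes, 2 were higher in Spc than in USg, and 1 was higher and 1 lower in Spc than in DSg. Hba1, an alpha globin gene, was higher in both, at 87.7 and 67.7 CPM in Spc and 0 and 1.35 CPM in DSg. Slc4a1 was the gene lower than in DSg, at 1.18 and 2.83 CPM in Spc and 7.27 and 14.5 CPM in DSg (-2.45 ± 0.69, edgeR adjusted p = 0.0305). Alas2, the first haem enzyme of red cells, had 4.53 and 5.01 CPM in Spc and 0 and 0.808 CPM in DSg, where the test missed the threshold (edgeR adjusted p = 0.0572). The part of red cell RNA in the Spc level of either mitoferrin was not tested.

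Slc25a39 and Slc25a40 are needed for the import of glutathione into mitochondria. Slc25a39 had 34.7 and 149 CPM in USg, 37.6 and 59.2 in DSg and 269 and 226 in Spc. Spc lay above both line groups. The difference passed against DSg (2.35 ± 0.60, edgeR adjusted p = 0.0208) and missed against USg (1.42 ± 0.58, edgeR adjusted p = 0.0869), where USg 1 and USg 2 were far apart. The call against DSg ended without DSg 1 (0.114) or DSg 2 (edgeR adjusted p = 0.088). The difference from USg passed with no filter (0.0102), DESeq2 (0.0243), limma-voom (0.0385), a replicate block (edgeR adjusted p = 0.0112), without USg 2 (2.85, 0.000712) and without USg 1 and DSg 1 together (0.71, 0.00361). In DSg against USg it was -0.93 ± 0.58 (edgeR adjusted p = 0.418), and it passed as lower without USg 1 (-1.76, 0.0133) and without USg 1 and DSg 1 together (-1.47, 7.46e-05). Without USg 2 it turned to 0.41. RefSeq lists 8 pseudogenes of Slc25a39, so its counts may be incomplete. Slc25a40 had 14.3 and 12.8 CPM in USg, 27.5 and 23.97 in DSg and 26.2 and 27.9 in Spc. Both DSg and both Spc libraries lay above both USg libraries, with log2 fold changes of 0.93 ± 0.35 in DSg against USg and 1.00 ± 0.35 in Spc against USg that missed the threshold (edgeR adjusted p = 0.206 and 0.0532). The second passed with limma-voom (0.0453) and without USg 1 and DSg 1 together (0.0038). In Spc against DSg it was 0.07 ± 0.34 (edgeR adjusted p = 0.888).

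The carriers related to uncoupling proteins were Slc25a14, Slc25a27 and Slc25a30. Slc25a30 was lower in Spc than in DSg, at 29.4 and 28.1 CPM in Spc, against 56.2 and 55.5 CPM in DSg (-0.96 ± 0.31, edgeR adjusted p = 0.0494). Its USg level was 44.8 and 47.2 CPM, and Spc against USg did not pass (-0.68 ± 0.31, edgeR adjusted p = 0.119), except without USg 1 and DSg 1 together (0.00921). The call against DSg ended under 9 of 16 alternatives, among them DESeq2 (0.0583) and a replicate block (edgeR adjusted p = 0.0597), with values of 0.0516 to 0.493. Slc25a14, which is X-linked, ranged from 7.66 to 12.1 CPM, and Slc25a27 from 4.99 to 12.8 CPM, and neither passed. Slc25a46, a mitochondrial dynamics factor of the outer membrane, had 35.5 and 16.9 CPM in USg, 54.1 and 29.9 in DSg and 21.7 and 22.0 in Spc without a call. Slc25a54 stayed between 1.42 and 4.44 CPM.

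The 7 genes under the filter summed to 20 and 29 counts in USg, 11 and 83 in DSg and 38 and 37 in Spc. In DSg 2 each had 4 to 15 counts, against 1 to 3 in DSg 1. DSg 2 was also the library in which 96.7% of olfactory receptor genes had a count, and the part of that background in these 7 genes was not tested. Nor was its part in genes past the filter at low levels, such as Slc25a18, Slc25a29 and Slc25a35. Outside DSg 2, the highest count of the 7 genes was 13, for Slc25a45 in Spc 1.

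The genes listed beside the family were 57 other names of mitochondrial transport, import and biogenesis, of which 49 were in the table and 48 tested. In Spc against USg, 9 were higher and 5 lower, beside 17.9% and 16.6% of all genes, and in Spc against DSg also 9 and 5, beside 14.8% and 11.7%. Each is 14 of 48 genes, or 29.2%, beside 34.5% of all genes against USg and 26.5% against DSg. In DSg against USg 0 passed by edgeR, and 3 by DESeq2. Carriers outside the Slc25a symbols passed in Spc too, 2 of 4 against USg and 3 of 4 against DSg, all higher. Ucp2, an uncoupling protein, had 25.5 and 68.7 CPM in USg, 11.7 and 16.4 in DSg and 152 and 156 in Spc (1.69 ± 0.46 against USg, edgeR adjusted p = 0.0208, and 3.44 ± 0.50 against DSg, edgeR adjusted p = 0.00188), with 2.61 against USg when USg 2 was left out. Mtch2, an insertase of the outer membrane, had log2 fold changes of 1.14 ± 0.31 against USg and 1.199 ± 0.31 against DSg (edgeR adjusted p = 0.0202 and 0.0208). Of 3 pyruvate carrier genes listed, 2 were in the table, and both were higher in Spc than in USg. The difference was 1.83 ± 0.37 for Mpc1 and 1.88 ± 0.47 for Mpc2 (edgeR adjusted p = 0.00557 and 0.0148). The call of Mpc2 ended without Spc 1 (1.29, edgeR adjusted p = 0.225). Mpc1 had 44.0 and 24.4 CPM in USg, 80.0 and 66.2 in DSg and 119 and 122 in Spc.

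Of 5 sideroflexins, which include serine carriers, 1 passed. Sfxn3 had 9.65 and 7.83 CPM in USg, 12.1 and 15.3 in DSg and 84.9 and 90.1 in Spc (3.33 ± 0.36 against USg and 2.66 ± 0.35 against DSg, edgeR adjusted p = 0.000356 and 0.00122). The outer membrane channel gene Vdac2 was higher in Spc than in USg (1.64 ± 0.39, edgeR adjusted p = 0.0118). Of 13 tested import genes, Tomm70a and Agk were higher and Timm8a1 and Tomm40 lower in Spc than in USg, although the call of Tomm40 ended without USg 2 (-0.82, edgeR adjusted p = 0.121). Timm8a1, a small chaperone of the intermembrane space, stood at 48.6 and 51.8 CPM in USg, 62.2 and 57.4 in DSg and 17.3 and 11.8 in Spc. Among the malate-aspartate enzymes Mdh2, mitochondrial malate dehydrogenase, was lower in Spc than in USg (-1.55 ± 0.32, edgeR adjusted p = 0.00606). Of 11 biogenesis genes, the coactivator gene Ppargc1a was higher in Spc, at 5.02 and 0.890 CPM in USg, 4.04 and 4.85 in DSg and 35.5 and 44.0 in Spc (3.93 ± 0.68 against USg, edgeR adjusted p = 0.00269). It had only 13 and 5 counts in USg, and the value was 5.39 without USg 1, 2.99 without USg 2 and 5.41 without USg 1 and DSg 1 together. Tfam, which packages and transcribes mitochondrial DNA, was lower in Spc than in USg (-1.74 ± 0.32, edgeR adjusted p = 0.0037), as was Pprc1, a coactivator of the same family as Ppargc1a (-1.47 ± 0.30, edgeR adjusted p = 0.00628). Of the 14 calls in each Spc comparison, 5 held under all 16 alternatives against USg (Mpc1, Ppargc1a, Sfxn3, Ucp2 and Vdac2) and 2 against DSg (Sfxn3 and Ucp2). The other calls ended under at least 1 alternative, in 1 to 7 of the 16 each.

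**Figure D4:**
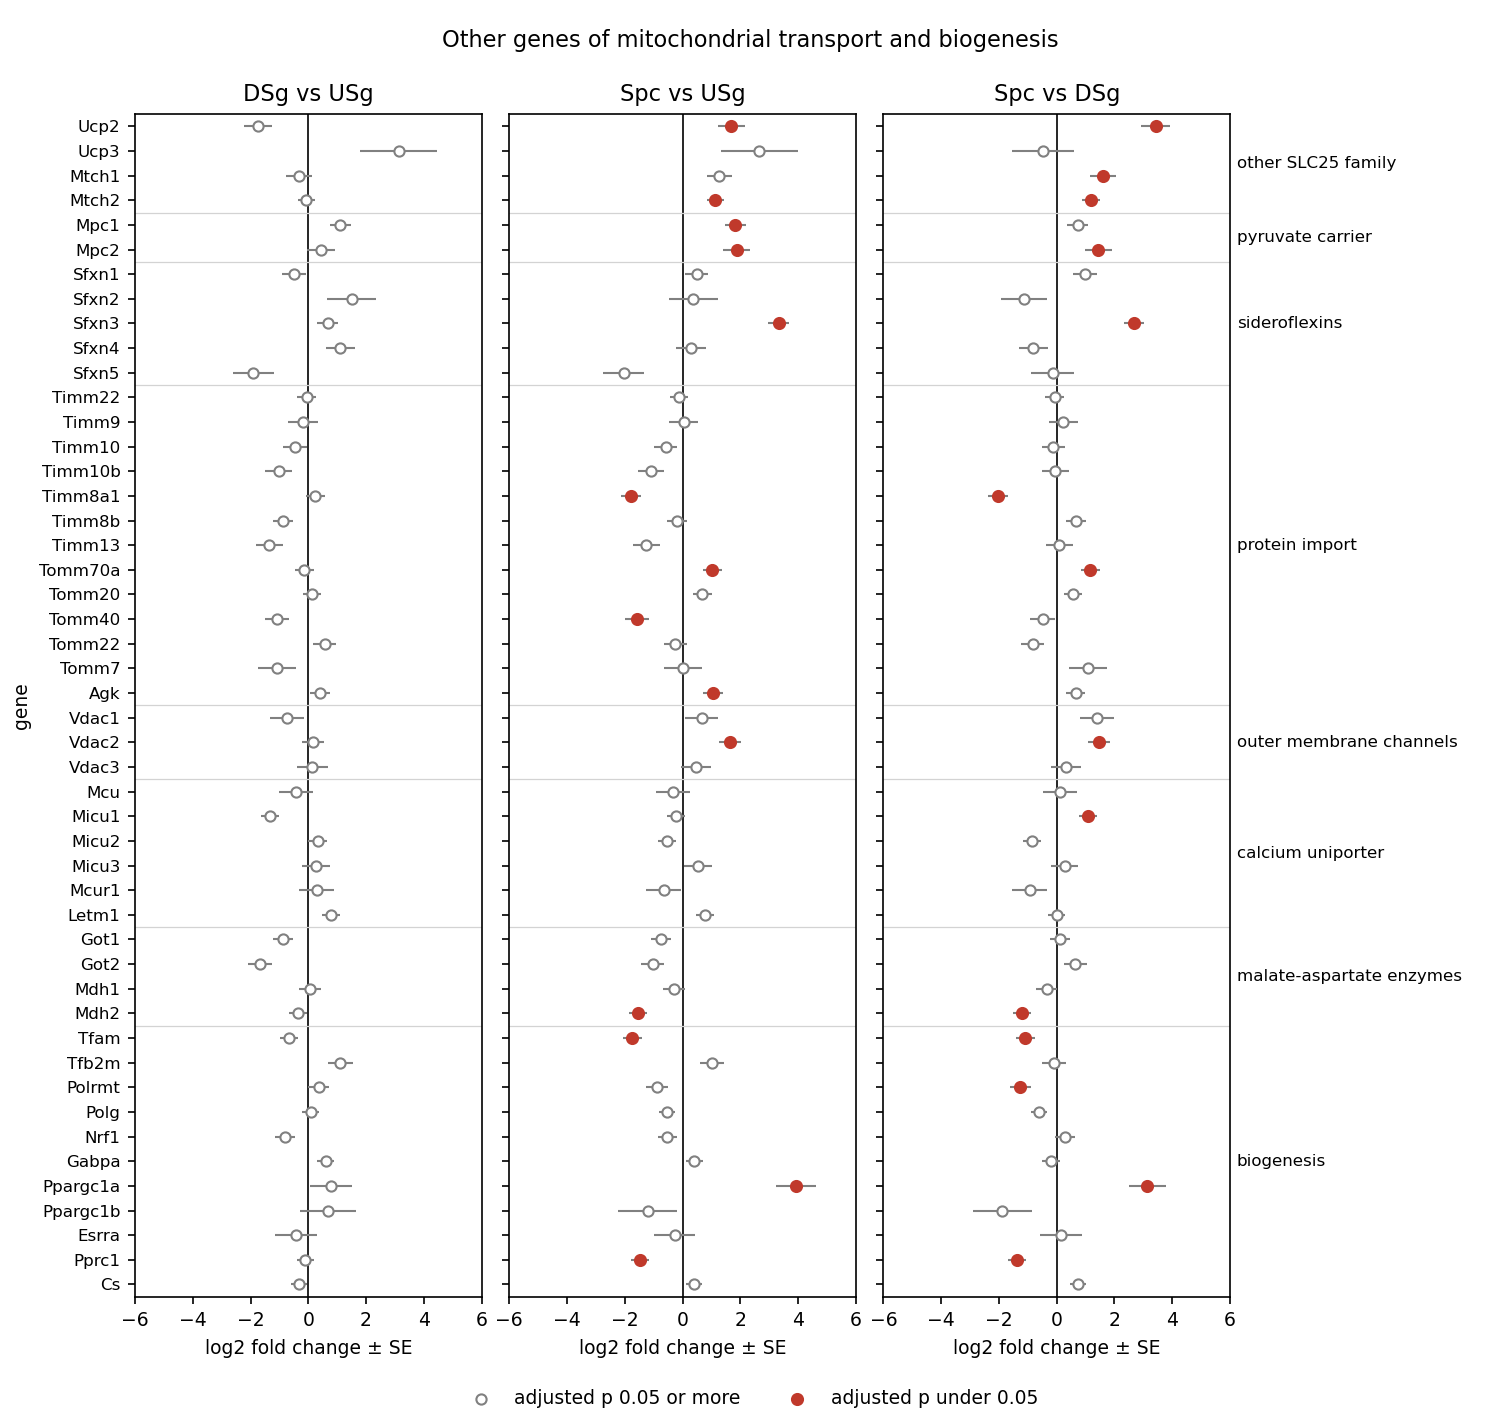
Log2 fold changes ± SE, by edgeR, of the 48 tested genes listed beside the Slc25 family, in the 3 comparisons and by list; filled points passed an adjusted p of 0.05. No point is filled in DSg against USg, and 9 are filled right of 0 and 5 left of 0 in each Spc comparison.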

How the data were processed

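RNA libraries of USg, DSg and Spc (2 of each) were used. A further 2 samples, immunoprecipitated with an anti-Foxa2 antibody, were left out. The values the authors deposited are raw counts of reads per gene symbol, whole numbers whose column totals differ. Nothing in the labels says which aligner, build, annotation or strand setting made them, and the sources used here do not give them. The submitters' processing notes name HOMER, Picard 1.127, edgeR 3.2.4, Subread 1.4.6, featureCounts, Bowtie2 2.2.3 and STAR 2.5.3a, with rn5 and rn6 as builds, and no role for any.

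Counts were filtered with filterByExpr of edgeR 4.0.16 (minimum count 10, minimum total 15), given TMM factors, then put through its quasi-likelihood F-test, 1 fit of 6 libraries with 3 residual degrees of freedom (R 4.3.3, limma 3.58.1). The fit also draws each gene's spread toward a trend over all genes, which adds to those degrees of freedom. P-values are two-sided and adjusted by Benjamini-Hochberg over 12210 genes, with a threshold of 0.05. Levels are CPM on TMM-scaled totals. The SE of a log2 fold change is its absolute value divided by the root of its F. The code was tested on simulated data. Of the alternatives, 9 kinds were planned: 3 other scalings, no filter, DESeq2 1.42.0, limma-voom, a fit of only the 4 libraries at issue, a replicate block, and dropping each library. Another 2 were chosen after seeing the data: leaving out USg 1 and DSg 1 together, and leaving out ribosomal RNA genes. This makes 16 settings. The Slc25 genes and all lists were chosen with earlier results of these data known. Any Slc25 gene could be named, with full statistics where it passed in a comparison or carries ADP/ATP, iron or glutathione. Other genes came only from the lists. The values of 1 tested Slc25 gene, which is counted in the totals, are not reported here. Symbols were matched to RefSeq (GRCr8) for chromosomes, pseudogenes and overlapping genes, and 39 of 39 matched. With 2 libraries per group, the spread between libraries limits precision.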

Additional observations from a re-analysis of the deposited data

How the results depend on the processing

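No call of a Slc25 gene changed direction under the 16 alternatives. The calls that held throughout were 3 of 7 in Spc against USg, 2 of 9 in Spc against DSg and 0 of 1 in DSg against USg. In DSg against USg no gene of any kind passed without DSg 1 or without DSg 2, so no call could hold there. The number of Slc25 genes called in DSg against USg, 1 with all libraries, was 2 with no filter, 3 with DESeq2, 3 with a replicate block, 0 in the fit of 4 libraries, 15 without USg 1 and DSg 1 together, and 0 to 4 when 1 library was left out. In Spc against USg it was 11 with no filter, 21 without USg 1 and DSg 1 together and 6 to 10 with 1 library left out, and in Spc against DSg 15 and 4 to 11 under the last 2. Over all genes, DSg against USg called 69 higher and 234 lower. The counts were 189 and 855 with no filter, 239 and 542 with DESeq2, 10 and 80 with 4 libraries, 168 and 436 with a replicate block, 2992 and 3335 without USg 1 and DSg 1 together, 0 to 317 and 0 to 1184 with 1 library left out, and 141 lower with total-count scaling. Spc against USg gave 4081 and 4165 without USg 1 and DSg 1 together, and 1306 to 2288 higher and 922 to 2274 lower with 1 library left out. Spc against DSg gave 4115 and 4177, and 1168 to 2547 and 466 to 1742, with 2152 lower in the fit of 4 libraries. Where USg 1 and DSg 1 are both left out, the spread comes from Spc alone, and the lone libraries are assumed to vary likewise. A group left with 1 library elsewhere is assumed to vary like the other groups. The other mitochondrial genes called in DSg against USg numbered 0, with 5 under no filter, 3 with DESeq2, 1 with limma-voom, 3 with a replicate block, 24 without USg 1 and DSg 1 together and 0 to 9 with 1 library left out. They numbered 14 in each Spc comparison, with 32 against USg and 28 against DSg without USg 1 and DSg 1 together, and 6 to 19 and 4 to 16 with 1 library left out.

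Upper quartile and total-count scaling moved the median of all genes by 0.145 and 0.149 (log2) in DSg against USg and by -0.213 and -0.185 in Spc against DSg, and the share of calls that were higher in Spc than in DSg to 43.6% and 45.6%, against 55.8% with TMM. Some values that missed the threshold changed sign. They were near 0 for Slc25a4, Slc25a37 and Slc25a40, but Slc25a39 in DSg against USg was at -0.93. Slc25a37 in Spc against DSg was -0.15 and -0.13 under these scalings, and -0.028 (without Spc 1) to 0.28 with 1 library left out. Slc25a40 there was -0.14 and -0.10, and -0.029 (without DSg 2) to 0.35. In DSg against USg, with 1 library left out, Slc25a4 ranged from -1.01 to 0.34 (without DSg 2) and Slc25a39 from -1.76 to 0.41 (without USg 2). The cause was not tested.

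The replicate numbers are shared by the groups, but the labels do not say that they pair cultures. Deviations of equally numbered libraries correlated at 0.295 between DSg and USg, -0.285 between Spc and USg and -0.007 between Spc and DSg. Over the 32 tested Slc25 genes the value between DSg and USg was 0.472. These values do not decide whether cultures were paired. As the labels state no pairing, the numbers were not taken as pairs, and the replicate block is given only as an alternative.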

Other observations

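Within the cell line, several Slc25 genes differed between library 1 and library 2 in the same way in USg and in DSg. On the log2(CPM + 1) scale 20 of 32 genes deviated in the same direction in both groups, 11 higher in library 1 and 9 lower. That is 62.5% of the family, beside 63.8% of all genes. Slc25a10, Slc25a29 and Slc25a44 were lower in library 1 by over 2-fold in both groups. Slc25a3, Slc25a24 and Slc25a46 were higher in library 1 in both. In both line groups library 1 was also the library with more ribosomal RNA, at 12.4% of counts in DSg 1 and 7.81% in USg 1. The part of that difference in these levels was not tested.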
